A study of Mus musculus with 8 samples.

Results

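Coagulation and plasminogen system genes were followed in mouse embryos cultured with A485, which inhibits the histone acetyltransferases p300 and CBP. The set has 9 genes (Tfpi, Tfpi2, F3, Thbd, Procr, Plat, Plau, Plaur and Serpine2), found by symbol among the 18257 genes of the deposited table. The set was chosen by the measured values of Tfpi, which was among the largest rises after A485. The contrast of A485 with control therefore chose the set, and the differences of its members between these groups are given as a description, with no test.

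The treated group had 4 libraries of wild-type embryos cultured with 2 µM A485, and the control group had 4 libraries of wild-type embryos cultured with 0.1% DMSO. Treatment began at the 4-cell stage, and the labels describe culture on to the blastocyst while naming the samples morulae. Each library pooled 3 embryos freed of the zona pellucida, and the labels name no mouse strain. Totals of estimated counts were 23967845 to 25175423 per A485 library and 23641781 to 25677701 per control library.

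Coagulation starts when tissue factor, the product of F3, binds factor VII. The inhibitor Tfpi blocks that complex, and thrombomodulin (Thbd) together with the protein C receptor (Procr) turn thrombin toward the anticoagulant protein C. The plasminogen system runs beside it, with urokinase (Plau) and tissue plasminogen activator (Plat) making plasmin, a protease that cuts fibrin and extracellular matrix. Around implantation, trophoblast cells of the mouse secrete plasminogen activator, and thrombomodulin and the protein C receptor are required at the placental border between trophoblast and maternal blood.

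Both groups were checked against marker genes. Markers of the preimplantation embryo summed to 3501 to 5866 CPM (counts scaled to library size, after TMM factors) in A485 and to 9252 to 10359 CPM in control, with 7 of the 10 tested lower and 2 higher in A485. Most of the control sum was Dppa3, at 728 to 3951 CPM in A485 and 6980 to 7815 CPM in control. Krt8 and Krt18 were the 2 that rose. Krt8 was at 656 to 1734 CPM in A485 and 304 to 427 CPM in control. Krt18 was at 649 to 1570 CPM in A485 and 435 to 627 CPM in control. Endothelial markers summed to 10.5 to 33.1 CPM in A485 and 14.3 to 15.7 CPM in control, with the defining markers Cdh5 and Vwf at or under 0.28 CPM in every library. Of the 2 tested, Esam rose, to 1.72 to 9.31 CPM in A485, against 0.696 to 2.30 CPM in control, and Pecam1 was not called. Tek reached 6.16 CPM in 1 A485 library and Cldn5 4.21 CPM in another, against at most 0.361 and 0.418 CPM in control. Hepatocyte markers summed to 3.26 to 20.0 CPM in A485 and 29.7 to 35.6 CPM in control, with 2 of the 3 tested lower and Alb at 0 in all libraries but A485 replicate 3. Granulosa markers summed to 16.0 to 47.7 CPM in A485 and 44.3 to 59.9 CPM in control, with Fshr, Foxl2, Amh and Cyp19a1 at or under 0.31 CPM. Nearly all of that sum was Nr5a2, which fell, at 12.3 to 44.2 CPM in A485 and 44.2 to 59.7 CPM in control. Inha rose, at 0.813 to 2.26 CPM in A485 with no count in control, so it could only be called higher. Inhba was counted in 3 A485 libraries alone, at up to 0.575 CPM. Tnfaip6, not tested, was at 0.111 to 1.53 CPM in A485 and at most 0.0881 CPM in control. Foxl2 was at 0.0366 to 0.306 CPM in A485 and at most 0.0440 CPM in control. All 5 sperm markers were under 1 CPM in every library. Parietal endoderm markers other than Thbd and Plat summed to 177 to 407 CPM in A485 and to 23.6 to 37.9 CPM in control. Of the 5 tested markers 2 rose, Sparc and Sox7. Sparc alone was at 163 to 373 CPM in A485 and 10.1 to 20.6 CPM in control. Sox7 was at 0.622 to 1.59 CPM in A485 and at or under 0.0903 CPM in control, so it could only be called higher. Lama1 stayed at or under 0.53 CPM in every library. The blood list summed to 173 to 472 CPM in A485 and 34.8 to 50.3 CPM in control, most of it Hba-a1 and Cd68, the 2 of the 4 tested that rose, while Ptprc and Pf4 stayed at or under 0.35 CPM. The part of these lists in the members' differences was not tested. In pools of whole embryos, fewer cells of a type and less RNA per cell cannot be told apart.

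The promoter windows of 4 members are shown because Tfpi, F3, Procr and Plaur had the largest fitted fold changes among the members with a window, and the first of 2 windows is shown for Tfpi. Each window runs from 250 bases before to 50 bases after a RefSeq transcription start (GRCm38.p6), 5′ to 3′ on the strand of the gene. Capitals mark matches, on either strand, to AP-1 (TGANTCA), the antioxidant response element (TGACNNNGC), the E-box (CACGTG), the cAMP response element (TGACGTCA), the GC box (GGGCGG) or the TATA box (TATAAA).
Tfpi, chr2:84476710-84477009, minus strand: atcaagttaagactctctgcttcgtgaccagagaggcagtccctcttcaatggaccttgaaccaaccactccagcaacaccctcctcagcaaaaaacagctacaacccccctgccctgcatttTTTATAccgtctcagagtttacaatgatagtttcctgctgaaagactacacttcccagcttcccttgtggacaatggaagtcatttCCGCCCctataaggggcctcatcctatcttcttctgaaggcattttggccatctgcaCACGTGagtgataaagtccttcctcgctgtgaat
F3, chr3:121723287-121723586, plus strand: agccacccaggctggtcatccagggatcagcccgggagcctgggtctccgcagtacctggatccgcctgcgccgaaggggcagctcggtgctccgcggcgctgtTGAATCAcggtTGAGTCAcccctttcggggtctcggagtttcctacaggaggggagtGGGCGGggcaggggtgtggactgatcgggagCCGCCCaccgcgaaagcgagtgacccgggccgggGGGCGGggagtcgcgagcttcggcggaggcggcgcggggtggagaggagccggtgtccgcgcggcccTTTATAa
Procr, chr2:155750967-155751266, plus strand: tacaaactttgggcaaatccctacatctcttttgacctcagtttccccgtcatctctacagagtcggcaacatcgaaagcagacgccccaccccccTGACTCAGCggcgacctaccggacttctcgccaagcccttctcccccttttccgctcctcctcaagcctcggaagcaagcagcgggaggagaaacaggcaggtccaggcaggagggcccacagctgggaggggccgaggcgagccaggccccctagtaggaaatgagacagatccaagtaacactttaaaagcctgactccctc
Plaur, chr7:24462233-24462532, plus strand: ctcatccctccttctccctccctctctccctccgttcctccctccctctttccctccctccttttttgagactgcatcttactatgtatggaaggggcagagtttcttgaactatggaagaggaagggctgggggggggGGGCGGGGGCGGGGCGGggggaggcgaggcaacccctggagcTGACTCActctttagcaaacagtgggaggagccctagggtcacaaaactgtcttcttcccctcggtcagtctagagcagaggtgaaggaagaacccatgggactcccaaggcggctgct
AP-1 letters were found in the windows of F3, Procr and Plaur and in 1 window of Tfpi2, against 7.81% of all 32851 promoter windows. This share is per window, and Tfpi and Tfpi2 had more than 1 window each. The Tfpi windows, the Serpine2 window and the other Tfpi2 windows held no AP-1 letters. No member window held the cAMP response element. A rise in these data chose the set, so nothing is read from the share. F3 held them at 2 places, beginning 146 and 135 bases before the start, Procr at 154 bases and Plaur at 69 bases before it. The whole Plaur window lies inside that gene, which begins at 24460937, so its letters are not upstream of the gene's first base. In Procr the same letters also matched the antioxidant response element, which 12.4% of all windows held. The Tfpi window held an E-box, a GC box and TATA box letters, the last 127 bases before the start, and its second window, at chr2:84474125-84474424, held a GC box alone. The Serpine2 window held 6 GC boxes and had a GC content of 77.7%, where the median of all windows was 52.7%. Among all windows 35.7% held a GC box, 13.6% TATA box letters and 7.15% an E-box. RefSeq windows were found for 6 of the 9 members.

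Every member past the filter on low counts was higher in all 4 A485 libraries than in all 4 control libraries. These were F3, Tfpi, Procr, Plau, Plat, Plaur and Serpine2, 7 of the 9 members. Among all 12936 genes that passed the filter, 26.9% had A485 libraries entirely above control, and since this contrast chose the set nothing is read from its share. Plau passed the filter through its A485 libraries, with at least 10 counts in 4 of them and in 1 control library, so it could only pass by being higher there. Tfpi had at least 10 counts in 4 A485 and 3 control libraries.

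F3 encodes tissue factor, the membrane protein that starts the clotting cascade, and lies on chromosome 3 at 121723537 to 121735052. F3 was at 16.7, 32.2, 37.3 and 36.5 CPM in A485 replicates 1 to 4, against 3.04, 3.07, 2.58 and 1.86 CPM in control replicates 1 to 4. A485 replicate 1 was the lowest of its group and still above every control, and the other 3 lay close together. The fitted log2 fold change was 3.54 ± 0.30 (SE).

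Tfpi encodes the Kunitz-type inhibitor of tissue factor and factor X, on chromosome 2 at 84432855 to 84476775. Tfpi was at 98.1, 107, 119 and 112 CPM in A485 replicates 1 to 4, against 0.969, 0.903, 0.250 and 1.02 CPM in control replicates 1 to 4. It was the most even member among A485 libraries, where the highest was 1.22 times the lowest, while control replicate 3 lay below the other controls. The log2 fold change was 7.12 ± 0.35 (SE), on 11840 counts in A485 and 70 in control. Tfpi2, its paralog and an inhibitor of plasmin, had 7 counts in A485 replicate 3 and 0 in each of the 7 other libraries. A count of 0 allows up to 0.110 to 0.123 CPM in the other A485 libraries and 0.125 to 0.139 CPM in control. No fold change is given for Tfpi2, which did not pass the filter.

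Procr encodes the endothelial protein C receptor, on chromosome 2 at 155751125 to 155755478. Procr was at 68.7, 128, 185 and 145 CPM in A485 replicates 1 to 4, against 3.57, 1.40, 2.04 and 4.64 CPM in control replicates 1 to 4. A485 replicate 1 was again the lowest and replicate 3 the highest, and the log2 fold change was 5.50 ± 0.45 (SE). Thbd, encoding thrombomodulin, which binds thrombin so that it activates protein C, stayed close to absent. Thbd had 0, 15, 15 and 13 counts in A485 replicates 1 to 4, against 6, 2, 2 and 7 counts in control replicates 1 to 4. The groups overlapped because A485 replicate 1 had none, which allows up to 0.123 CPM, and Thbd did not pass the filter. The 2 receptors of the protein C pathway were thus at very different levels in A485, with a mean of 122 TPM (the deposited level, scaled to transcript length and library size) for Procr and 0.133 TPM for Thbd.

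**Figure D1:**
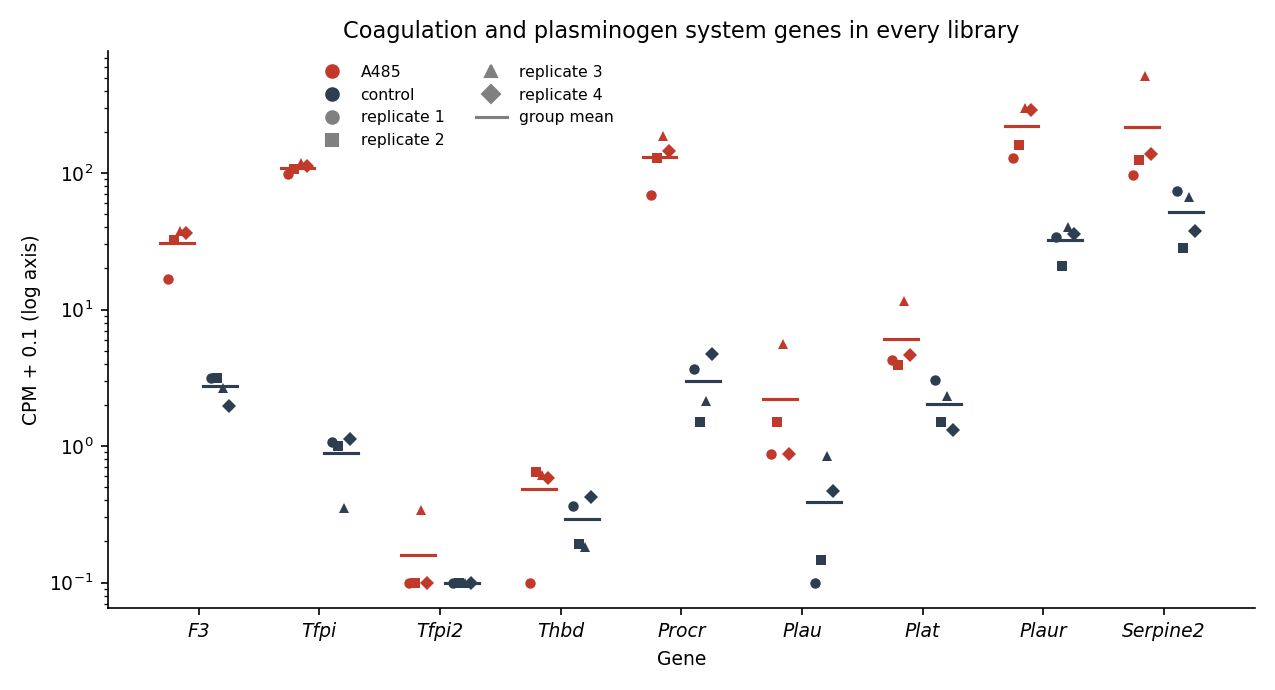
CPM + 0.1 (log axis) of the 9 genes in every library, A485 left of control, with 1 symbol per replicate and a line at the group mean. For F3, Tfpi and Procr the A485 libraries lie far above the controls, while Thbd overlaps between groups and Tfpi2 was counted in 1 library alone.

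Plaur encodes the urokinase receptor, a cell-surface protein held by a lipid anchor, on chromosome 7 at 24460937 to 24475970. Plaur was at 128, 160.2, 301 and 288 CPM in A485 replicates 1 to 4, against 33.9, 20.7, 39.8 and 35.5 CPM in control replicates 1 to 4. A485 replicates 3 and 4 were both above replicates 1 and 2, and the log2 fold change was 2.76 ± 0.32 (SE), or 2.15 without A485 replicates 3 and 4.

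Plau encodes urokinase, the ligand of that receptor, on chromosome 14 at 20836662 to 20843388. Plau was at 0.780, 1.39, 5.51 and 0.776 CPM in A485 replicates 1 to 4, against 0, 0.0451, 0.750 and 0.371 CPM in control replicates 1 to 4. The groups were barely apart, with 21 counts in A485 replicate 4 and 18 in control replicate 3. The log2 fold change was 2.83 ± 1.02 (SE), with 1.72 without A485 replicate 3 and 3.85 without control replicate 3. Plat encodes tissue plasminogen activator, on chromosome 8 at 22757722 to 22782848. Plat was at 4.15, 3.80, 11.5 and 4.51 CPM in A485 replicates 1 to 4, against 2.95, 1.40, 2.21 and 1.21 CPM in control replicates 1 to 4. A485 replicate 3 was far above the other 3, which lay close together and above every control, and the log2 fold change was 1.62 ± 0.44 (SE).

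Serpine2 encodes protease nexin, a serpin that inhibits thrombin, urokinase and tissue plasminogen activator, on chromosome 1 at 79794317 to 79858665. Serpine2 was at 97.0, 125, 514 and 139 CPM in A485 replicates 1 to 4, against 73.5, 28.1, 66.7 and 37.4 CPM in control replicates 1 to 4. One A485 library held most of the group's counts, and the lowest A485 library was close above the highest control. The log2 fold change was 2.09 ± 0.59 (SE), or 1.22 without A485 replicate 3 and 1.11 without A485 replicates 3 and 4. Without a composition factor the log2 fold changes of the 7 members were 1.95 to 7.41, all in the same direction.

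Most members shared their highest and their lowest A485 library, an order that many genes called higher also had. Replicate 3 was the highest A485 library for 8 of the 9 members, which it was for 29.6% of all tested genes and 47.7% of the genes that passed the test as higher. The 8 include Tfpi2, which was counted in replicate 3 alone. Replicate 1 was the lowest A485 library, without a tie, for 6 of the 9 members, against 32.4% of all tested genes and 57.1% of those that passed as higher. The share of the members was near the latter, so nothing particular to them is read from it. The spread differed between members: the coefficient of variation among A485 libraries was 8.22% for Tfpi, 31.2% for F3, 36.7% for Procr, 40.1% for Plaur, 61.5% for Plat, 90.5% for Serpine2 and 108% for Plau. Among control libraries it was 45.9% for Tfpi, 21.5% for F3, 50.4% for Procr, 25.4% for Plaur, 41.3% for Plat, 43.0% for Serpine2 and 119% for Plau. Control counts of Tfpi and Plau were low, at 70 and 27 over the group, so counting error adds to their spread. The preimplantation marker sum was also lowest in A485 replicate 3, at 3501 CPM, and highest of the group in replicate 1, at 5866 CPM. That order follows Dppa3, at 728 CPM in A485 replicate 3 and 3951 CPM in A485 replicate 1. Krt8 and Krt18 were instead lowest of the A485 group in replicate 1, at 656 and 649 CPM. The part of these markers in the order of the members was not tested.

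**Figure D2:**
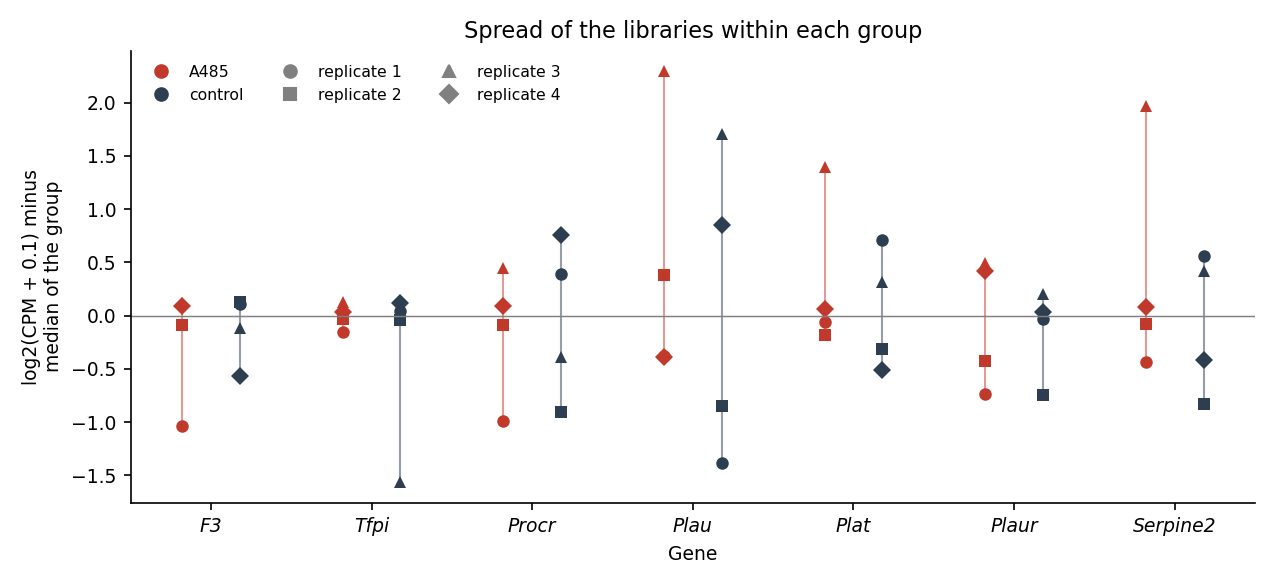
Log2(CPM + 0.1) of each library minus the median of its group, for the 7 members past the filter, A485 left of control, with 1 symbol per replicate. A485 replicate 3 stands apart for Plau, Plat and Serpine2, while the A485 libraries of Tfpi lie close together.

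Levels of different genes were compared per transcript length, in the deposited TPM, which the choice of the set did not use within a group. The place of Tfpi in each order is not free of that choice, since its rise chose the set. In A485 the order of mean levels was Plaur (194 TPM), Serpine2 (143 TPM), Procr (122 TPM), Tfpi (107 TPM), F3 (21.7 TPM), Plat (3.06 TPM), Plau (1.23 TPM), Thbd (0.133 TPM) and Tfpi2 (0.0575 TPM). The 4 leading genes did not stand apart: each difference between neighbours, taken within libraries on the log2 scale, was smaller than its SD over the 4 libraries. Serpine2 exceeded Procr in 1 of the 4 A485 libraries, since replicate 3 carried its mean. Thbd and Tfpi2 did not stand apart either. In all 4 A485 libraries Tfpi exceeded F3, F3 exceeded Plat, Plat exceeded Plau and Plau exceeded Thbd. Without A485 replicate 3, 1 pair of neighbours in place of 4 did not stand apart.

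In control the order was Serpine2 (25.65 TPM), Plaur (22.4 TPM), Procr (2.10 TPM), F3 (1.46 TPM), Plat (0.768 TPM), Tfpi (0.625 TPM), Plau (0.133 TPM), Thbd (0.05 TPM) and Tfpi2, listed at 0. Serpine2 and Plaur, the inhibitor and the receptor of urokinase, were thus the leading members in untreated embryos, and their difference was smaller than its SD. The same held for Procr and F3, Plat and Tfpi, and Plau and Thbd.

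Tfpi stood above F3 in A485 and below it in control. The log2 ratio of Tfpi to F3 in TPM was 2.39 ± 0.45 in A485 and -1.22 ± 0.92 in control (SD, n = 4 each), above 0 in every A485 library and below 0 in every control library. The log2 ratio of Serpine2 to Plat, an inhibitor to one of its targets, was 5.28 ± 0.40 in A485 and 4.85 ± 0.30 in control (SD, n = 4 each). That of Plaur to Plau, receptor to ligand, was 7.57 ± 1.00 in A485 and 6.81 ± 0.75 in control (SD, n = 4 each). Both of these overlapped between groups. The control values of Plau were near 0 TPM, so the added 0.1 TPM weighs on its ratio, and the ratio of TPM summed over the libraries was 158 in A485 and 169 in control. The Tfpi ratio follows from the rise that chose the set and is a description only.

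**Figure D3:**
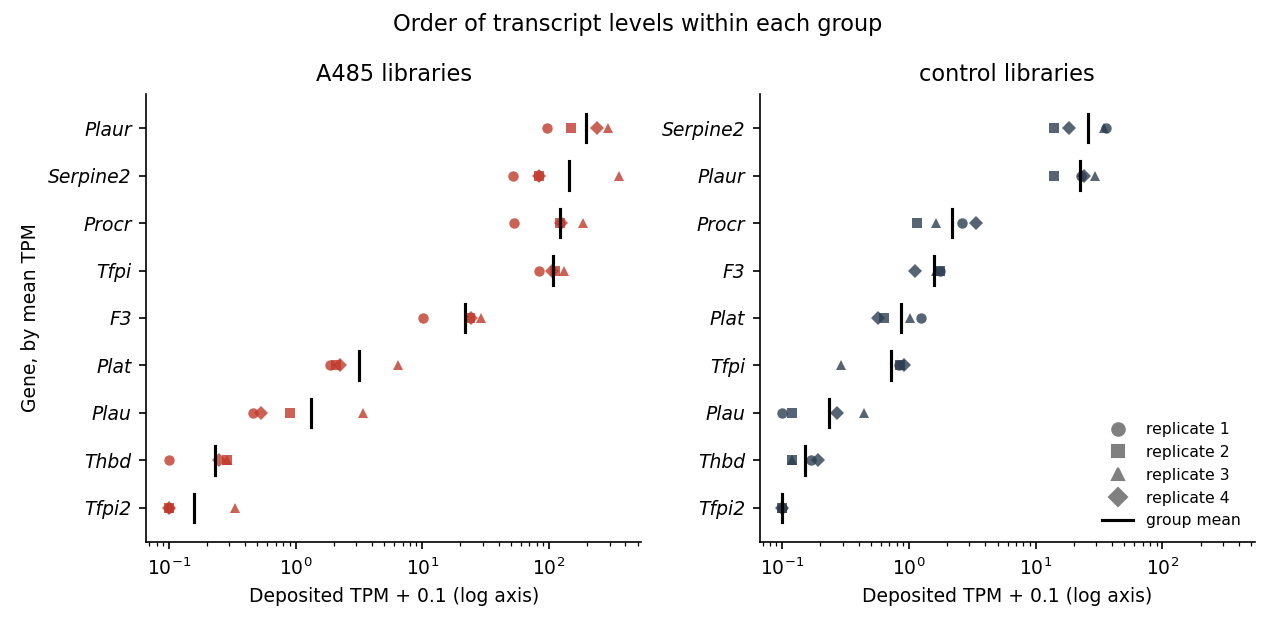
Deposited TPM + 0.1 (log axis) of the 9 genes, ordered by group mean, in A485 (left) and control (right) libraries, with 1 symbol per replicate and a line at the mean. Tfpi stands above F3 in A485, at 107 TPM, and below it in control, at 0.625 TPM. Plaur and Serpine2 have the highest means in both groups, but in A485 replicate 3 carries that of Serpine2. In A485 the leading genes do not stand apart.

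Genes whose pattern was most like that of Tfpi were sought among all tested genes by the root mean square difference of log2 CPM over the 8 libraries, each gene centred on its control mean. This difference follows the size of the rise, which chose the set. It therefore finds genes that rose from low control levels and is a description only. The nearest was Gng3, a G protein subunit gene, at 0.586, with 20.7 ± 4.75 CPM in A485 and 0.125 ± 0.135 CPM in control (SD, n = 4 each). Rnf183, a ubiquitin ligase gene, followed at 0.688, with 8.92 ± 4.68 CPM in A485 and no count in control. Isg20 (0.775), Cd276 (0.801) and Trf (0.851), the last encoding transferrin, came next among named genes, after 1 predicted gene that was passed over. Rnf183 and Cd276 had little or no count in control, so the count of 2 added before the log weighs on their distance. Their fitted log2 fold changes were 10.8 and 8.79, against 7.12 for Tfpi.

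Other genes of the pathway were taken from 10 lists that leave out the members, 113 genes in all, of which 62 passed the filter. Some passed it through their A485 libraries and could only be called higher. Among these were F2r, Vldlr, Timp2 and Serpinb9, with 14 to 16 counts each over the control group. Sorl1, Timp3, Sort1 and Proc, with 23, 26, 31 and 40 counts over that group, also needed their A485 libraries to pass. By the quasi-likelihood test of edgeR, adjusted over all tested genes, 33 of the 62 rose and 9 fell, against 29.7% higher and 25.0% lower among all 12936 tested genes. Their median log2 fold change was 0.98, where that of all tested genes was 0.09. The lists were chosen with earlier results of these data known, so nothing is read from these shares or this median. Scaling by library totals alone moved the median of all genes to 0.37, with 4930 genes higher and 2300 lower in place of 3839 and 3238, and 40 of the listed genes higher and 7 lower. No spike-in was analysed here, so a rise or fall means one against the rest of the transcriptome.

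Among the coagulation factors, 2 of 4 tested fell. Kng1, encoding kininogen, fell to 2.41 ± 1.12 CPM in A485, against 17.5 ± 3.66 CPM in control (SD, n = 4 each), and F2, encoding prothrombin, to 0.712 ± 0.372 CPM, against 2.55 ± 1.38 CPM. The call of F2 was lost without control replicate 1 (log2 fold change of -1.402, edgeR adjusted p = 0.0517). F10 had 0 counts in A485 and 6 in control, all of them in control replicate 4. Of the anticoagulants, 3 of 4 tested rose. Anxa5, encoding a protein that covers the phospholipids on which clotting factors assemble, reached 129.5 ± 98.0 CPM in A485, against 2.87 ± 0.751 CPM in control. Proc, the gene of protein C, the ligand of Procr, had a log2 fold change of 3.68 ± 0.49 and Pros1, encoding its cofactor protein S, of 1.34 ± 0.35 (SE). Proc, with 40 counts over the control group, needed its A485 libraries to pass the filter, so it could hardly be called lower. Serpinc1, the antithrombin gene, fell with a log2 fold change of -1.21 ± 0.40 (SE), a call lost with library totals, with control replicate 2 left out, and with A485 replicate 3 or 4 left out (adjusted p between 0.0535 and 0.0838 in edgeR). Without both of these A485 replicates it was 0.129. The call of Pros1 was lost there too (0.0839).

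In the list of plasminogen, its receptors and the inhibitors of fibrinolysis, 5 of 6 tested rose. Anxa2, which with S100a10 forms a cell-surface receptor for plasminogen and its tissue activator, reached 1001 ± 306 CPM in A485, against 210 ± 38.8 CPM in control (SD, n = 4 each). Eno1, a glycolytic enzyme that also binds plasminogen at the cell surface, had a log2 fold change of 2.82 ± 0.21 (SE), with an uncertain count because near-identical copies exist. Serpini1, encoding neuroserpin, an inhibitor of tissue plasminogen activator, reached 24.2 ± 12.4 CPM in A485, against 1.93 ± 0.170 CPM in control. Pzp, encoding a broad protease inhibitor of the macroglobulin family, fell to 3.87 ± 1.36 CPM in A485, against 42.4 ± 0.965 CPM in control.

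Of the protease-activated receptors, F2r, the thrombin receptor gene, rose (log2 fold change 4.50 ± 0.68, SE), to 3.89 ± 2.89 CPM in A485, against 0.170 ± 0.118 CPM in control (SD, n = 4 each). With 15 counts over the control group, F2r passed the filter through its A485 libraries and could only be called higher. A485 replicate 3 was at 8.10 CPM and the other A485 libraries at 1.56 to 3.22 CPM, and the log2 fold change of F2r was 3.86 without A485 replicate 3. F2rl1, with 1.10 ± 0.45 (SE), missed the threshold (adjusted p = 0.061 in edgeR) but passed it in DESeq2, limma-voom, with library totals and without control replicate 4 (adjusted p between 0.0272 and 0.0438). Among the clearance receptors, which take up complexes of protease and inhibitor, 6 of 11 rose and 2 fell. The log2 fold changes of Sort1, Lrp8 and Vldlr, which rose, were 3.59 ± 0.52, 2.61 ± 0.40 and 3.85 ± 0.78 (SE). Sort1 and Vldlr, with 31 and 16 counts over the control group, needed their A485 libraries to pass the filter, as did Sorl1. A call of lower was hardly possible for Sort1, Vldlr and Sorl1. Lrpap1, encoding the chaperone of this receptor family, fell to 570.0 ± 167 CPM in A485, against 2663 ± 144 CPM in control.

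In the vitamin K and secretion list 4 of 7 rose and 2 fell. Nqo1, encoding a quinone reductase, rose by 3.17 ± 0.38 and Vkorc1l1 by 0.85 ± 0.17, while Vkorc1, the vitamin K epoxide reductase, fell by 0.74 ± 0.19 and Mcfd2, part of the cargo receptor for clotting factors, by 0.68 ± 0.15 on the log2 scale (SE). Of the partners of the urokinase receptor 3 of 7 tested rose, the integrin genes Itgb1, Itgav and Itga5, with log2 fold changes of 0.99 ± 0.16, 1.31 ± 0.35 and 1.26 ± 0.28 (SE). Vtn, encoding vitronectin, a ligand of Plaur, was not called, with -0.37 ± 0.45 (SE) and an adjusted p of 0.51 in edgeR. Among pericellular proteases and their inhibitors 4 of 11 rose, the serine protease gene Prss8 and the metalloprotease inhibitor genes Timp1, Timp2 and Timp3, with log2 fold changes of 2.29 to 4.86. That of Timp3 was 3.06, or 2.37 without A485 replicate 3, and that of Timp2 was 4.86, or 5.46 without control replicate 2. Timp2 and Timp3, with 16 and 26 counts over the control group, needed their A485 libraries to pass the filter. A call of lower was hardly possible for them. In this list 8 rose without A485 replicate 1. The call of Vkorc1 was lost with library totals (edgeR adjusted p = 0.0847), where 5 receptor partners and 7 pericellular genes rose.

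Of the other Kunitz-domain genes App and Aplp2 rose, 2 of 3 tested, with log2 fold changes of 1.04 ± 0.32 and 0.64 ± 0.16 (SE). App no longer passed without A485 replicates 3 and 4 (edgeR adjusted p = 0.0665). Of the other serpin genes 5 of 7 tested rose and 1 fell. Serpinb9, encoding an inhibitor of granzyme B, reached 13.98 ± 9.15 CPM in A485, against 0.155 ± 0.279 CPM in control, and Serpinh1, encoding the collagen chaperone, 15.1 ± 9.10 CPM, against 0.849 ± 0.509 CPM (SD, n = 4 each). The control level of Serpinb9 rests on control replicate 1, at 0.572 CPM, and its log2 fold change was 6.45 with that library and 9.45 without it. Serpinb9b rose by 0.69 ± 0.23 on the log2 scale (SE) and Serpinb6a fell by 0.98 ± 0.17 (SE). The Serpinb genes belong to clusters of close relatives, so their counts are uncertain. The number of serpin genes that rose was 2 without A485 replicate 3 and 3 without control replicate 2, without control replicate 4, in limma-voom or with a replicate block, and the call of Serpinb9b was lost in 7 settings (adjusted p between 0.0505 and 0.0714 in edgeR).

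**Figure D4:**
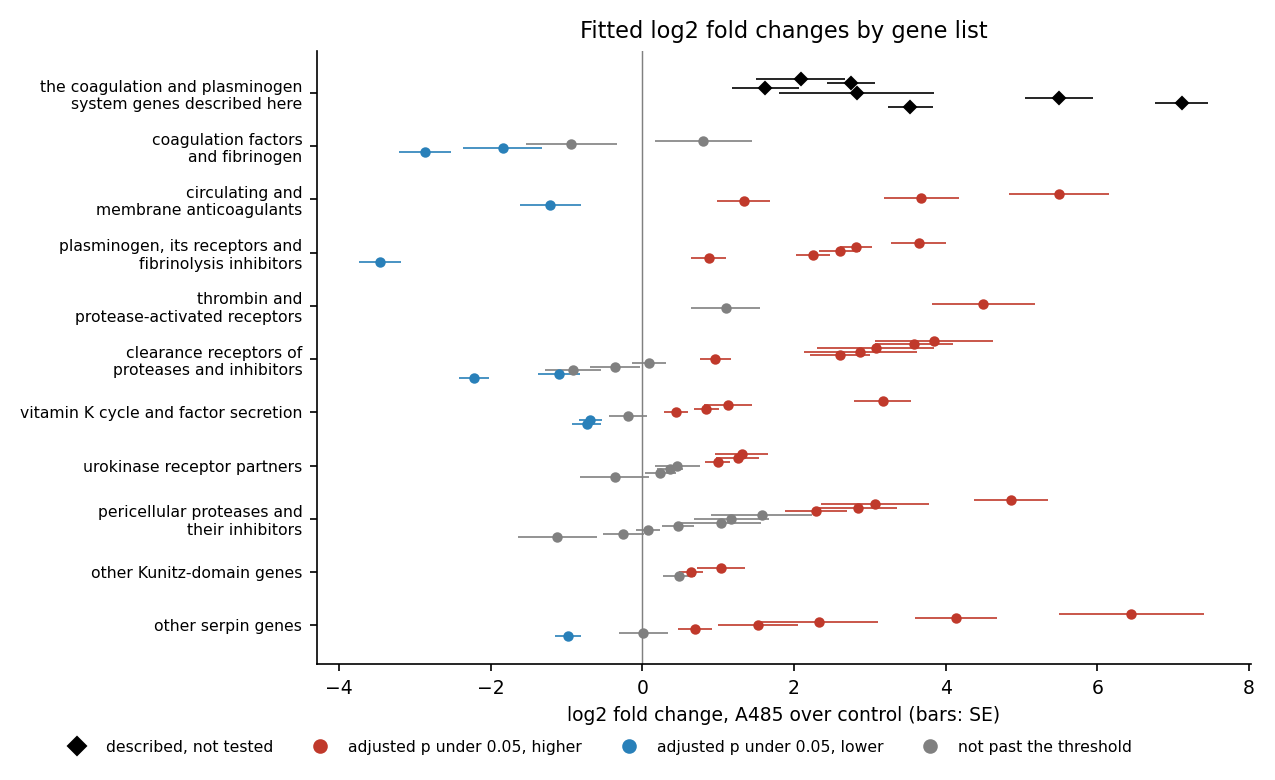
Fitted log2 fold changes of A485 over control with SE for the 7 members past the filter (black, described and not tested) and for the 62 other pathway genes by list, coloured by the edgeR call. Of these 62 genes 33 were higher and 9 lower, and the lowest values are those of Pzp and Kng1.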

How the data were processed

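Polyadenylated RNA of 8 pools of mouse embryos was measured, 4 cultured with A485 and 4 with DMSO. Per the submitters' processing notes, the build was GRCm38.p6 and the tools were DESeq2 1.40.2, RSEM 1.2.28 and HISAT2 2.2.1. Per the file headers, the authors deposited for each library an estimated count, a TPM value, an FPKM value and a normalized count, which the deposited values show as a signal scaled by 1 factor per library. Of the estimated counts 18.2% were not whole (tolerance 1e-06). FPKM and normalized counts entered no result.

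Estimated counts, rounded to whole numbers, were fitted with edgeR 4.0.16 in R 4.3.3 (filterByExpr, TMM factors, robust quasi-likelihood fit, group as the only term). P-values were adjusted by Benjamini-Hochberg over all 12936 tested genes, with a threshold of 0.05. The SE of a log2 fold change is its size divided by the square root of F. CPM uses TMM-scaled library sizes. Differences between genes used log2(TPM + 0.1). The code was tested on simulated data. Limma 3.58.1 (voom), DESeq2 1.42.0, RLE factors, library totals, other filters, a replicate block and left-out libraries were the alternatives. Tables were made in Python 3.11.15 with pandas 2.3.3.

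The members and all gene lists were chosen with earlier results of these data known. Named genes are every member, a fixed set of pathway genes (Plg, F2, F7, F10, F2r, F2rl1, Serpinb2, Vtn and a gene that is not reported here), up to 4 called genes of smallest p in each list, and the 5 genes whose pattern was most like that of Tfpi. Plg, F7 and Serpinb2 were not analysed here. No replicate pair agreed within sampling noise (chi-square per degree of freedom of 57.8 to 199 for A485 pairs and 18.8 to 33.1 for control pairs). Totals of estimated counts per library were 23967845 to 25175423 for A485 and 23641781 to 25677701 for control. Floors on a count of 0 cover counting error only, since reads without molecular identifiers can be PCR copies. The labels give neither litter nor culture day of a pool, so p-values measure the spread between these pools.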

Additional observations from a re-analysis of the deposited data

Results flagged for a closer look

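Of the 16 sets of 4 libraries with counts in at least 2 of them, 5 had 1 library far outside the other 3 by Dixon's ratio, where chance gives about 5% of sets. The sets are not independent, since 3 of the 5 concern A485 replicate 3. Serpine2 was at 514 CPM in that library and at 97.0 to 139 CPM in the other A485 libraries. Plat was at 11.5 CPM there and at 3.80 to 4.51 CPM in the others, and Plau at 5.51 CPM, against 0.776 to 1.39 CPM. Tfpi2 was at 0.238 CPM there and at 0 in the others, which fixes its ratio, so it is not among the 5. Thbd was at 0 in A485 replicate 1 and at 0.480 to 0.549 CPM in the other A485 libraries. Tfpi was at 0.250 CPM in control replicate 3 and at 0.903 to 1.02 CPM in the other controls.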

How the results depend on the processing

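The log2 fold changes of the 7 members kept their direction under every alternative in which they were fitted, and Tfpi ranged from 6.77 to 7.41. The filter of 5 CPM in 4 libraries left out Plau and Plat. It tests fewer genes, and 2526 genes were then higher, with 21 of the listed pathway genes higher, among them 1 clearance receptor, 2 pericellular genes, 3 serpin genes and no protease-activated receptor. Without A485 replicates 3 and 4, Plaur had a log2 fold change of 2.15 and Serpine2 of 1.11, and the cause was not tested. Leaving out 1 library at a time, 1 to 4 pairs of neighbouring levels did not stand apart in A485 and 4 to 5 in control, and the log2 fold change of Vtn was -0.698 to 0.0243. Without A485 replicates 3 and 4, 2 vitamin K genes and 3 serpin genes rose. Of the receptor partners 6 rose with no filter and 5 without A485 replicates 1 and 2, where 7 pericellular genes rose. Without A485 replicate 2, and without A485 replicate 3, 1 pericellular gene fell. Of 563 values of 34 named pathway genes 542 kept their direction and call. Same-numbered libraries showed no clear shared deviation (correlations of 0.01, 0.01, 0.10 and 0.07 for replicates 1 to 4). Differently numbered libraries reached -0.13 and 0.14. With so few pools and no label of litter or culture day, these values cannot settle whether the numbers pair the samples. A replicate block gave 3508 genes higher and 3163 lower, 30 and 9 of the listed genes, and log2 fold changes of 1.55 to 7.16 for the members. Low counts limit what can be said of Tfpi2, Thbd and Plau.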

Other observations

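F8, encoding clotting factor VIII, varied widely among treated embryos. It was at 15.8, 8.85, 0.919 and 3.81 CPM in A485 replicates 1 to 4, against 4.71, 4.06, 4.17 and 3.85 CPM in control replicates 1 to 4, with 0.80 ± 0.64 (SE) as its log2 fold change and an adjusted p of 0.31 in edgeR. F8 was the 1 coagulation factor that passed as higher without A485 replicate 3, and without A485 replicates 3 and 4. F8 was singled out after its values were seen. The order of its A485 libraries, with replicate 1 highest and replicate 3 lowest, ran against that of most coagulation and plasminogen system genes. It also ran against the order of many other genes called higher.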
